A study of Mus musculus with 8 samples.

Results

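Translation initiation factors are the proteins that bring the ribosome, the initiator tRNA and an mRNA together at the start codon. Their 47 genes were taken from the 18635 genes of the deposited table by symbol (Eif1 to Eif6), without the eIF4E-binding proteins, the eIF2 kinases, the Y-linked Eif2s3y and pseudogenes, which left out 9 symbols. They comprised 5 genes of eIF1, 5 of eIF2, 5 of eIF2B, 14 of eIF3, 13 of eIF4, 4 of eIF5 and 1 of eIF6. Their transcripts were compared between macrophages with and without the Cre that deletes Phgdh, the gene of the enzyme that opens serine synthesis from glucose.

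The cells were BMDMs, macrophages grown from bone marrow, of C57BL/6 littermates aged 6 to 8 weeks. They spent 24 h in medium conditioned by AE17 cells, a mouse mesothelioma line (AE17-TCM), and macrophages so treated are called TEMs. All 8 samples carried loxP-flanked Phgdh alleles, received the same conditioned medium and were described as biologically independent, 4 of them Phgdh fl/fl TEMs (control TEMs) and 4 Phgdh fl/fl Cx3cr1-Cre TEMs (Cre TEMs). Cre was expressed from the Cx3cr1 locus in place of 1 Cx3cr1 copy, and the control TEMs had no Cre, so Phgdh deletion, Cre and the loss of that copy cannot be told apart. Whether the marrow of several mice was pooled is not given in the sources used here.

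Initiation starts when eIF2 with GTP delivers the initiator tRNA to the small subunit, which already carries eIF1, eIF1A and the large scaffold eIF3. The eIF4 factors bind the cap of the mRNA and unwind its leader, eIF5 triggers GTP hydrolysis by eIF2 at the start codon, eIF5B joins the large subunit and eIF2B reloads eIF2 with GTP. This machinery is a known target of mTORC1 and of the eIF2 kinases, which set the rate of protein synthesis in activated and stressed macrophages.

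The promoter windows that follow show the E-box CACGTG, the letters that MYC and related factors are known to bind, which stood in members called lower as well as in members that were not. They are 30 bases each from RefSeq on GRCm38.p6, 5′ to 3′ on the strand of the gene, with the E-box in capitals. The first 4 belong to members called lower in the Cre TEMs and lie at chr7:28981915-28981944 for Eif3k, chr11:69672595-69672624 for Eif4a1 and chr11:69921443-69921472 for Eif5a (minus strand), and at chr16:20672661-20672690 for Eif4g1 (plus strand). The other 4 belong to members that were not called and lie at chr9:120492570-120492599 for Eif1b, chr7:108934335-108934364 for Eif3f and chr3:28781123-28781152 for Eif5a2 (plus strand), and at chr5:134639488-134639517 for Eif4h (minus strand).
Eif3k: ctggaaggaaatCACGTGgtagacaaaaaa
Eif4a1: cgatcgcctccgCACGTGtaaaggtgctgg
Eif4g1: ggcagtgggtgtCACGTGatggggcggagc
Eif5a: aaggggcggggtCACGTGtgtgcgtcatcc
Eif1b: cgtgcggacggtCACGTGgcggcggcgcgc
Eif3f: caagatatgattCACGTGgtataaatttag
Eif4h: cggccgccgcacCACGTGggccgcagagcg
Eif5a2: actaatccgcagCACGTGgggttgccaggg

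A promoter of 250 bases before to 50 bases after the start was found for 37 of the 47 members. CACGTG, which reads the same on both strands, stood in 10 of them (27.0%), against 11.9% of the promoters of 9710 genes tested and 8.09% of all 27025 genes with a RefSeq promoter window. Eif3a and Eif4e also held it. It was found in 4 of the 19 members called lower (21.1%) and in 6 of the 18 others (33.3%). CCGGAAG on either strand, a core of sites for ETS factors, was found in 14 members (37.8%), against 20.9% of genes tested and 9.93% of all genes with a promoter window, and it was about as common in members called lower (7 of 19) as in the others (7 of 18). A run of at least 7 pyrimidines opening with C, as found at the start of many ribosomal protein transcripts, lay within 20 bases before to 10 bases after the start in 7 members (18.9%), against 18.7% of genes tested, and was held by 2 of the 19 members called lower and 5 of the 18 others. A gene with several starts was counted if the window of any start held the letters. These matches describe the letters of the windows and were not tested further.

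Values are normalized counts, which are the reads of a gene divided by the size factor of the sample. The samples held between 38219563 and 47027420 reads on genes, as worked back from these values. The target itself checked the labels, as Phgdh stood at 119, 129, 117 and 105 normalized counts in the control TEMs and at 32.6, 35.3, 14.2 and 26.3 in the Cre TEMs. Cx3cr1 fell from 1075 ± 94.2 to 660 ± 32.2 (SD, n = 4). All 8 macrophage markers were abundant, with a summed count between 1030180 and 1121130 in the control and between 1008580 and 1085170 in the Cre TEMs. Most of this sum was Lyz2, at a mean of 719688 in the control and 705962 in the Cre TEMs. Of the 8 markers, 4 were called lower and 0 higher, against 20.3% and 20.8% of all genes tested. These were Adgre1 (-0.08), Itgam (-0.19), Cd14 (-0.32) and Fcgr1 (-0.40 on the log2 scale). Of the 36 markers listed for other cells, 12 had a row in the table, and Ly6g, Elane, Cd3e, Msln and the haemoglobin genes were among those without one. S100a8, the 1 neutrophil marker present, rose by 0.23 on the log2 scale, and the B-cell receptor gene Cd79b fell by 0.63. Summed dendritic cell markers lay between 7.24 and 29.6 normalized counts in the control and between 25.9 and 41.7 in the Cre TEMs, and fibroblast and mesothelial markers between 33.1 and 45.6 and between 28.1 and 60.0. The part of other cells in the results was not tested. Fewer cells that make a transcript and less of it per cell cannot be told apart in bulk RNA.

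Transcripts of 25 of the 46 members tested were lower in the Cre TEMs and none was higher (limma on log2(normalized count + 1), adjusted p under 0.05 over all genes tested). The background was large, since 20.3% of the 13629 genes tested were called lower and 20.8% higher. The members called lower fell by between 4.97% and 20.1% of the control mean. Of the 21 members not called, Eif1b alone had an unadjusted p under 0.05. In 23 members all 4 Cre samples lay below all 4 control samples, as they did in 18.2% of all genes tested, and in no member did they all lie above, against 18.4%. With edgeR and with DESeq2 on the recovered reads the counts were the same, 25 lower and 0 higher. No window of read length, 75 bases, was shared with another gene in 24 members, 14 of them called lower.

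The log2 fold change was below 0 for 37 members and above 0 for 9, with a median of -0.083 over the members and -0.0018 over all genes tested. The members were abundant genes. Among the 7214 genes tested whose mean lay in the range of the members other than Eif3j2, 28.3% were called lower and 26.4% higher, with a median log2 fold change of -0.0088. The counts called in each factor below are read against these shares and those of all genes tested. Only Eif5a changed by more than 0.3 on the log2 scale with an adjusted p under 0.05. The remaining member, Eif4a3l2, a copy of the helicase gene Eif4a3, had between 1 and 5 reads in each sample and was not tested.

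**Figure D1:**
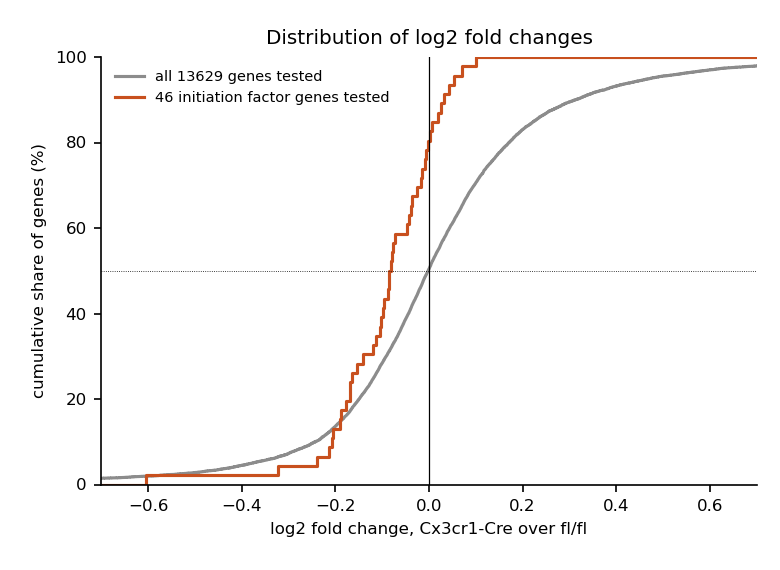
Cumulative share of genes (vertical axis, %) against the log2 fold change of Cre over control TEMs (horizontal axis), for the 46 initiation factor genes tested and all 13629 genes tested. The line of the members crosses 50% at -0.083 and that of all genes at -0.0018, and the highest member lies at 0.10.

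**Figure D2:**
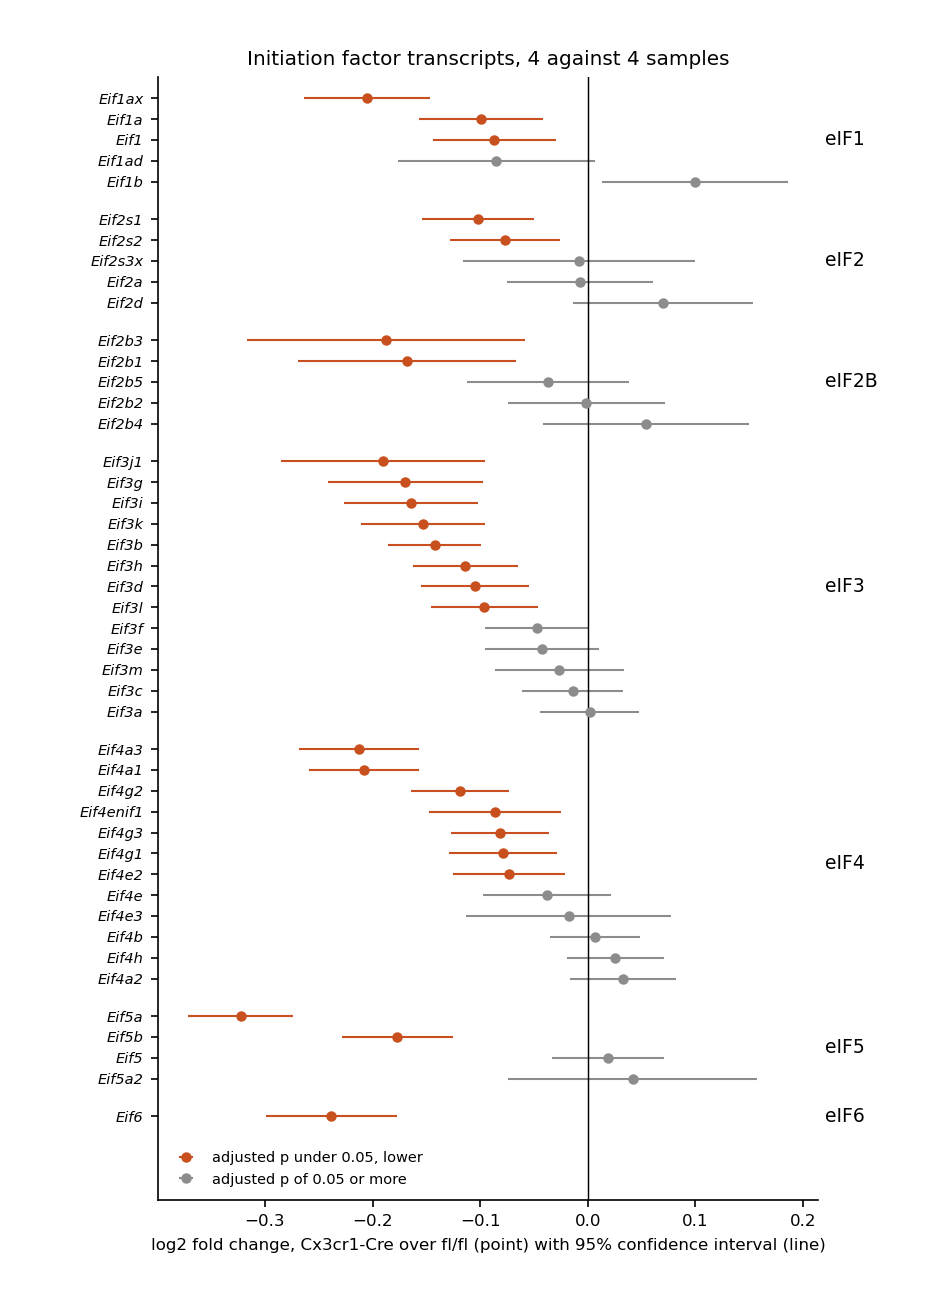
Log2 fold change of Cre over control TEMs for each member tested other than Eif3j2 (points), with the 95% confidence interval from limma (lines), grouped by factor and with members called lower in orange. Eif5a lies farthest to the left at -0.32, and the 25 orange intervals end below 0.

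Per length of exon, Eif5a was the most abundant member in the control TEMs, at 127 ± 3.90 FPKM (SD, n = 4), computed from the recovered reads. Eif3h followed at 110 ± 2.19, Eif4b at 107 ± 0.839 and Eif4a1 at 104 ± 2.42 FPKM. The ranges of Eif3h and Eif4b, and those of Eif4b and Eif4a1, overlapped across the control samples, whereas Eif5a stood apart. Windows of 75 bases, the length of a read, that also occur in other genes made up 1.80% of those in Eif5a. The share was 12.7% in Eif3h, 0.314% in Eif4b and 25.4% in Eif4a1. FPKM was not corrected for these shares, so the order of these members is uncertain. At the low end were Eif5a2 at 3.25 ± 0.222 and Eif2b3 at 2.59 ± 0.0835 FPKM, whose ranges did not overlap. Eif3j2 and Eif4a3l2 stood near background at 0.162 ± 0.0463 and 0.0446 ± 0.0202 FPKM.

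Among the factors that hold the scanning ribosome open, both eIF1A transcripts and Eif1 were called lower and Eif1b did not pass the test. Eif1ax, the X-linked gene of eIF1A (chrX:159372178-159389928 on mm10, plus strand), stood at 3866, 4159, 4059 and 4201 normalized counts in the control and at 3523, 3535, 3555 and 3505 in the Cre TEMs. The groups did not overlap, and the log2 fold change was -0.21 ± 0.028 (SE, limma, adjusted p = 4.84e-06). Its autosomal relative Eif1a had 4210, 4312, 4435 and 4404 against 4039, 4204, 3906 and 4063. Every Cre sample was below every control sample here too, with a log2 fold change of -0.10 ± 0.028 (limma, adjusted p = 0.00659).

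Eif1, the gene of the factor that guards start codon selection, had 5091, 5418, 5381 and 5358 normalized counts in the control and 5110, 5110, 4805 and 4980 in the Cre TEMs. The lowest control sample fell within the Cre range. The fall of 0.09 on the log2 scale was called (limma, adjusted p = 0.0149), but it was not called after a correction for GC content and length (-0.03, adjusted p = 0.374), with eBayes without trend (adjusted p = 0.0706), without control replicate 2 (adjusted p = 0.0510) or without Cre replicate 3 (adjusted p = 0.0700). Of the windows of 75 bases in Eif1 transcripts, the length of a read, 15.3% also occur in other genes. Eif1b, its close paralog, had 1504, 1635, 1555 and 1552 normalized counts against 1647, 1830, 1652 and 1573. Cre replicate 4 lay within the control range and the other 3 Cre samples above it, and the log2 fold change of 0.10 ± 0.041 missed the threshold (limma, adjusted p = 0.0592). It passed without control replicate 2 (0.12, adjusted p = 0.0361), without Cre replicate 4 (0.13, adjusted p = 0.0231), with total read scaling (0.12, adjusted p = 0.0330) and with the GC and length correction (0.18, adjusted p = 0.000913). Eif1ad, which encodes an eIF1A-like protein, gave -0.08 (limma, adjusted p = 0.133) and -0.11 without control replicate 1 (adjusted p = 0.0369).

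Of the 3 subunits of eIF2, the carrier of the initiator tRNA, the alpha and beta transcripts fell and the gamma transcript from the X chromosome did not pass the test. Eif2s1, whose product is the alpha subunit that the eIF2 kinases phosphorylate, stood at 5027, 4920, 5083 and 5101 normalized counts in the control and at 4713, 4695, 4555 and 4795 in the Cre TEMs. The groups were separate, with a log2 fold change of -0.10 ± 0.025 (limma, adjusted p = 0.00238). Eif2s2, the beta subunit gene, gave -0.08 (limma, adjusted p = 0.0152), and 0.0517 without control replicate 3.

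For the gamma subunit Eif2s3x had 791, 898, 760 and 766 normalized counts in the control and 784, 821, 818 and 767 in the Cre TEMs. The groups overlapped throughout, and the 95% interval of the log2 fold change ran from -0.12 to 0.10. Eif2s3x shares 34.2% of its windows of read length with other genes, so its count is uncertain. The Y-linked Eif2s3y, which is no member, had 4528, 4471, 4654 and 4661 normalized counts in the control and 3956, 3950, 4109 and 4113 in the Cre TEMs. It made up most of the gamma transcripts of both genotypes, 83.9% and 82.2% per exon length, and it fell by 0.18 on the log2 scale (limma, adjusted p = 8.26e-06). Of the other Y-linked transcripts examined none was called lower. Ddx3y and Kdm5d gave log2 fold changes of -0.02 and 0.08 that did not pass the test, and Uty rose by 0.19. Xist stood at 4.34 ± 3.51 in the control and 33.5 ± 8.95 in the Cre TEMs, without overlap. It was called higher, by 3.04 on the log2 scale (limma, adjusted p = 4.26e-05). The labels give no sex. The part of these sex-linked differences in the values of Eif1ax and Eif2s3x was not tested.

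Neither Eif2a nor Eif2d passed the test, genes whose products can bring tRNA to the ribosome without eIF2. Eif2a gave a log2 fold change of -0.01. Eif2d had 1091, 1098, 1064 and 1104 normalized counts against 1219, 1155, 1089 and 1116, so that 1 Cre sample lay within the control range, and gave 0.07 ± 0.040 (limma, adjusted p = 0.175).

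Of the 5 subunits of eIF2B, the exchange factor that reloads eIF2, only the alpha and gamma transcripts fell. Eif2b1 (alpha) fell by 0.17 on the log2 scale (limma, adjusted p = 0.00823). Eif2b3 (gamma) stood at 733, 763, 712 and 718 normalized counts in the control and at 718, 587, 579 and 695 in the Cre TEMs. Cre replicate 1 lay within the control range and Cre replicates 2 and 3 far below it. Its log2 fold change of -0.19 ± 0.062 was called (limma, adjusted p = 0.0189), and it was not called with eBayes without trend (adjusted p = 0.0982), without Cre replicate 2 (adjusted p = 0.0829), without Cre replicate 3 (adjusted p = 0.0859) or without control replicate 2 (adjusted p = 0.0608). Eif2b4 (delta) had 820, 861, 787 and 788 against 795, 862, 880 and 843. These groups overlapped, with a log2 fold change of 0.05 ± 0.046. Eif2b5, the catalytic epsilon subunit gene, and Eif2b2 (beta) gave -0.04 and -0.00, with 95% intervals from -0.11 to 0.04 and from -0.07 to 0.07.

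Of the 14 genes of eIF3 8 were called lower and none higher, against 20.3% and 20.8% of all genes tested. The median log2 fold change of the eIF3 genes was -0.11. Differences between the parts of the complex were not tested. Eif3b, Eif3g and Eif3i, whose products form the mobile module that sits near the mRNA entry channel, all fell, by 9.38% to 11.2%. Eif3b (chr5:140419328-140443360, plus strand) went from 10353 ± 55.1 to 9382 ± 65.7 normalized counts (SD, n = 4), a log2 fold change of -0.14 ± 0.021 (limma, adjusted p = 1.13e-05). For Eif3i the values were 3221 ± 86.9 and 2875 ± 91.0, with -0.16 ± 0.030 (limma, adjusted p = 0.000143). Eif3g went from 3307 ± 193 to 2937 ± 30.5, with -0.17 ± 0.035 (limma, adjusted p = 0.000434), and its control replicate 1 stood apart from the other 3 at 3020. No sample of one genotype entered the range of the other in these 3 genes.

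In the octamer, the structural core made by subunits a, c, e, f, h, k, l and m, 3 of the 8 transcripts fell (37.5%). Among genes tested in the abundance range of the members, 28.3% were called lower. The median log2 fold change of the octamer was -0.045. The transcripts that fell were Eif3k (-0.15), Eif3h (-0.11) and Eif3l (-0.10). Eif3h, with 12.7% of its read-length windows shared with another gene, lost its call with the GC and length correction (-0.04, limma, adjusted p = 0.114). Eif3a, the largest subunit, had 27044, 26497, 26031 and 25483 normalized counts in the control and 26395, 25986, 26185 and 26590 in the Cre TEMs. All Cre values lay inside the control range, and the log2 fold change of 0.00 turned to -0.07 with the GC and length correction (limma, adjusted p = 0.00451) and to 0.05 with quantile normalization (adjusted p = 0.0388). Eif3c, its partner in the core, gave -0.01 with a 95% interval from -0.06 to 0.03. Eif3e (-0.04), Eif3f (-0.05) and Eif3m (-0.03) did not pass the test either, but Eif3f did without control replicate 1 (-0.06, limma, adjusted p = 0.0219).

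The peripheral subunits fell as well. Eif3d, whose product can itself bind the cap of some mRNAs, fell by 0.10 on the log2 scale (limma, adjusted p = 0.00131), and 43.3% of its exon bases lie opposite the annotated gene Gm17638. Eif3j1, for the loosely bound subunit at the decoding site, had 810, 865, 850 and 798 normalized counts in the control and 716, 761, 698 and 737 in the Cre TEMs. The groups were separate, with a log2 fold change of -0.19 ± 0.045 (limma, adjusted p = 0.00188). Its near copy Eif3j2 had between 6 and 21 reads, with 10.2, 16.6, 21.7 and 18.1 normalized counts against 11.2, 12.5, 6.10 and 12.6. The groups overlapped, the difference did not pass the test (limma, adjusted p = 0.148), and 87.4% of the read-length windows of Eif3j2 also occur in Eif3j1, so the split of reads between them is uncertain. A further 19.0% of the exon bases of Eif3j1 lie opposite Spg11.

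**Figure D3:**
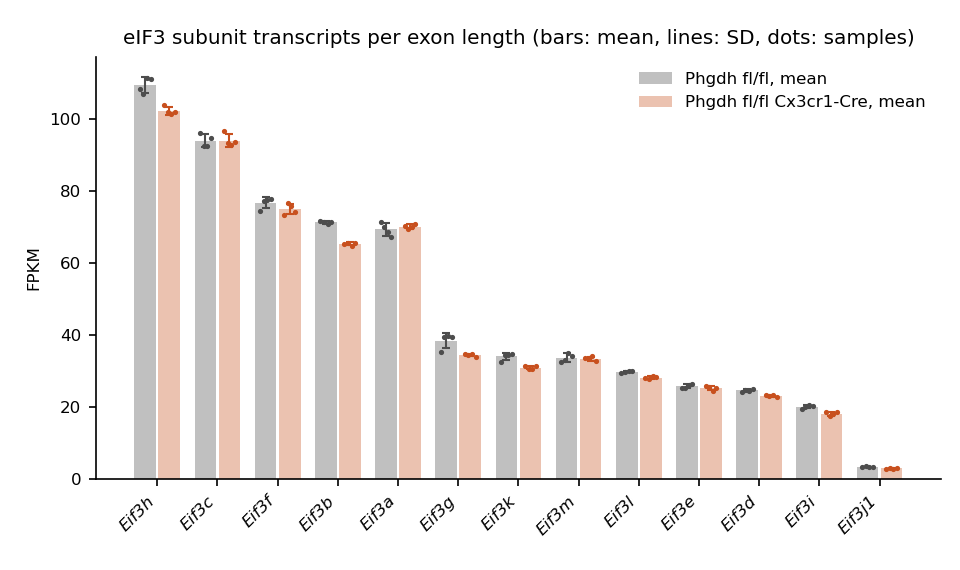
FPKM (vertical axis) of the eIF3 subunit transcripts other than Eif3j2 in control and Cre TEMs, as the mean of 4 samples (bars), its SD (lines) and each sample (dots), ordered by the control mean. Eif3h is highest at 110 FPKM in the control TEMs and Eif3j1 lowest at 3.29, and Eif3c stands at 94.1 FPKM in both genotypes.

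Of the helicase genes of eIF4, Eif4a1 and Eif4a3 fell and Eif4a2 did not pass the test. Eif4a1 (chr11:69666936-69672423, minus strand), the main RNA helicase of cap-dependent initiation, stood at 18785, 19616, 19907 and 19555 normalized counts in the control and at 16902, 16930, 17374 and 16205 in the Cre TEMs. The groups were far apart, with a log2 fold change of -0.21 ± 0.025 (limma, adjusted p = 7.15e-07). Eif4a2, its close paralog, had 11867, 12260, 12361 and 12043 against 12243, 12177, 12897 and 12324. These groups overlapped, and the 95% interval of the log2 fold change ran from -0.017 to 0.082. Eif4a3 (chr11:119288363-119300089, minus strand), the helicase of the exon junction complex rather than of initiation, had 3060, 3116, 3122 and 3092 in the control and 2665, 2684, 2728 and 2613 in the Cre TEMs, without overlap (-0.21 ± 0.027, limma, adjusted p = 1.63e-06). Read-length windows shared with other genes made up 25.4% of those in Eif4a1, 22.5% with the pseudogene Eif4a-ps4, which was counted at 164 ± 18.2 and 154 ± 23.6.

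The ratio of Eif4a1 to Eif4a2 per exon length was 1.98 ± 0.0213 in the control and 1.67 ± 0.0423 in the Cre TEMs (SD, n = 4), and the Cre samples at 1.70, 1.71, 1.66 and 1.62 lay below the lowest control sample at 1.95. The groups were separate (exact two-sided permutation test, p = 0.0286, the smallest possible with 4 against 4, and 0.0514 adjusted over the 9 ratios computed). As a share of the sum of both transcripts, Eif4a1 went from 66.4% ± 0.240 to 62.6% ± 0.595 (SD, n = 4).

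The cofactors that stimulate eIF4A did not pass the test. Eif4b gave a log2 fold change of 0.01 with a 95% interval from -0.04 to 0.05, and Eif4h 0.03 with an interval from -0.02 to 0.07. With quantile normalization Eif4b was called higher (0.07, limma, adjusted p = 0.00456).

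All 3 genes of the eIF4G scaffold fell, by less than 0.15 on the log2 scale. Eif4g1, the scaffold that joins eIF4E, eIF4A and eIF3, had 19346, 18968, 18244 and 18045 normalized counts in the control and 17305, 17961, 17648 and 17710 in the Cre TEMs. The highest Cre sample was just under the lowest control sample, and the log2 fold change of -0.08 ± 0.024 (limma, adjusted p = 0.0122) was not called with quantile normalization (-0.03, adjusted p = 0.263) or with eBayes without trend (adjusted p = 0.0749). Eif4g2, also called DAP5, which lacks the eIF4E-binding part, had 42939, 41246, 42107 and 40952 against 38603, 37840, 38972 and 38600. This was the most abundant member in reads, its groups did not overlap, and the log2 fold change was -0.12 ± 0.022 (limma, adjusted p = 0.000147). Eif4g3, a paralog of Eif4g1, had 8928, 9156, 9017 and 9000 against 8453, 8645, 8639 and 8384. Here too every Cre sample was lower, with -0.08 ± 0.022 (limma, adjusted p = 0.00509).

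The cap-binding genes differed less. Eif4e, the cap-binding subunit, had 4655, 4301, 4643 and 4681 normalized counts in the control and 4468, 4451, 4350 and 4523 in the Cre TEMs. Control replicate 2 was below all the Cre samples and the other 3 above them, and the log2 fold change was -0.04 with a 95% interval from -0.10 to 0.02. After the GC and length correction it was called lower (-0.07, limma, adjusted p = 0.0289). Eif4e2, a cap-binding protein known for silencing mRNAs, had 3870, 4030, 3945 and 3878 against 3762, 3712, 3751 and 3716. The groups were separate, but the fall of 0.07 on the log2 scale (limma, adjusted p = 0.0234) was the smallest that was called. It was not called with total read scaling (limma, adjusted p = 0.0706), or without control replicate 2 (0.0790), Cre replicate 2 (0.0615) or Cre replicate 4 (0.0571).

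Eif4e3, a further cap-binding relative, had 929, 879, 1018 and 957 normalized counts against 945, 957, 933 and 897, with all Cre values inside the control range and a log2 fold change of -0.02 ± 0.046. Eif4enif1, for the protein that carries eIF4E into the nucleus and to P-bodies, fell by 0.09 on the log2 scale (limma, adjusted p = 0.0228). That call was lost without control replicate 3 (adjusted p = 0.0677), Cre replicate 2 (0.0849) or Cre replicate 4 (0.0566), and with total read scaling (0.0582).

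Eif5a fell most among the members called. Its product, which carries the amino acid hypusine, helps ribosomes past stalling peptides and in termination. Eif5a (chr11:69916714-69921958, minus strand) stood at 12664, 13616, 12951 and 13051 normalized counts in the control and at 10413, 10522, 10376 and 10481 in the Cre TEMs. The Cre samples lay close together and well below the lowest control sample, 20.1% lower on average, with a log2 fold change of -0.32 ± 0.024 (limma, adjusted p = 6.37e-10). Over the 19 alternative analyses it ranged from -0.34 to -0.27 and was called in each. Eif5a2, a paralog of low abundance here, had 759, 739, 665 and 673 against 676, 790, 743 and 709. The groups overlapped, and the 95% interval of the log2 fold change ran from -0.074 to 0.157. Per exon length, Eif5a was 39.1 ± 2.75 times as abundant as Eif5a2 in the control and 30.4 ± 1.93 times in the Cre TEMs, without overlap of the groups (exact two-sided permutation test, p = 0.0286, adjusted over 9 ratios 0.0514).

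Of the factors that act at the start codon and at subunit joining, Eif5b (chr1:37998010-38055579, plus strand) and Eif6 fell and Eif5 did not pass the test. Eif5b, the GTPase gene of subunit joining, went from 14071 ± 421 to 12446 ± 286 normalized counts (SD, n = 4), a log2 fold change of -0.18 ± 0.025 (limma, adjusted p = 6.61e-06), and 16.8% of its exon bases lie opposite Rev1. Eif5, which activates the GTPase of eIF2, gave 0.02 with a 95% interval from -0.03 to 0.07. Eif6 (chr2:155819832-155826925, minus strand), whose product keeps free large subunits from joining too early, had 3012, 3206, 3072 and 3222 normalized counts in the control and 2660, 2688, 2591 and 2664 in the Cre TEMs. All Cre samples were below all control samples, with a log2 fold change of -0.24 ± 0.029 (limma, adjusted p = 1.19e-06).

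**Figure D4:**
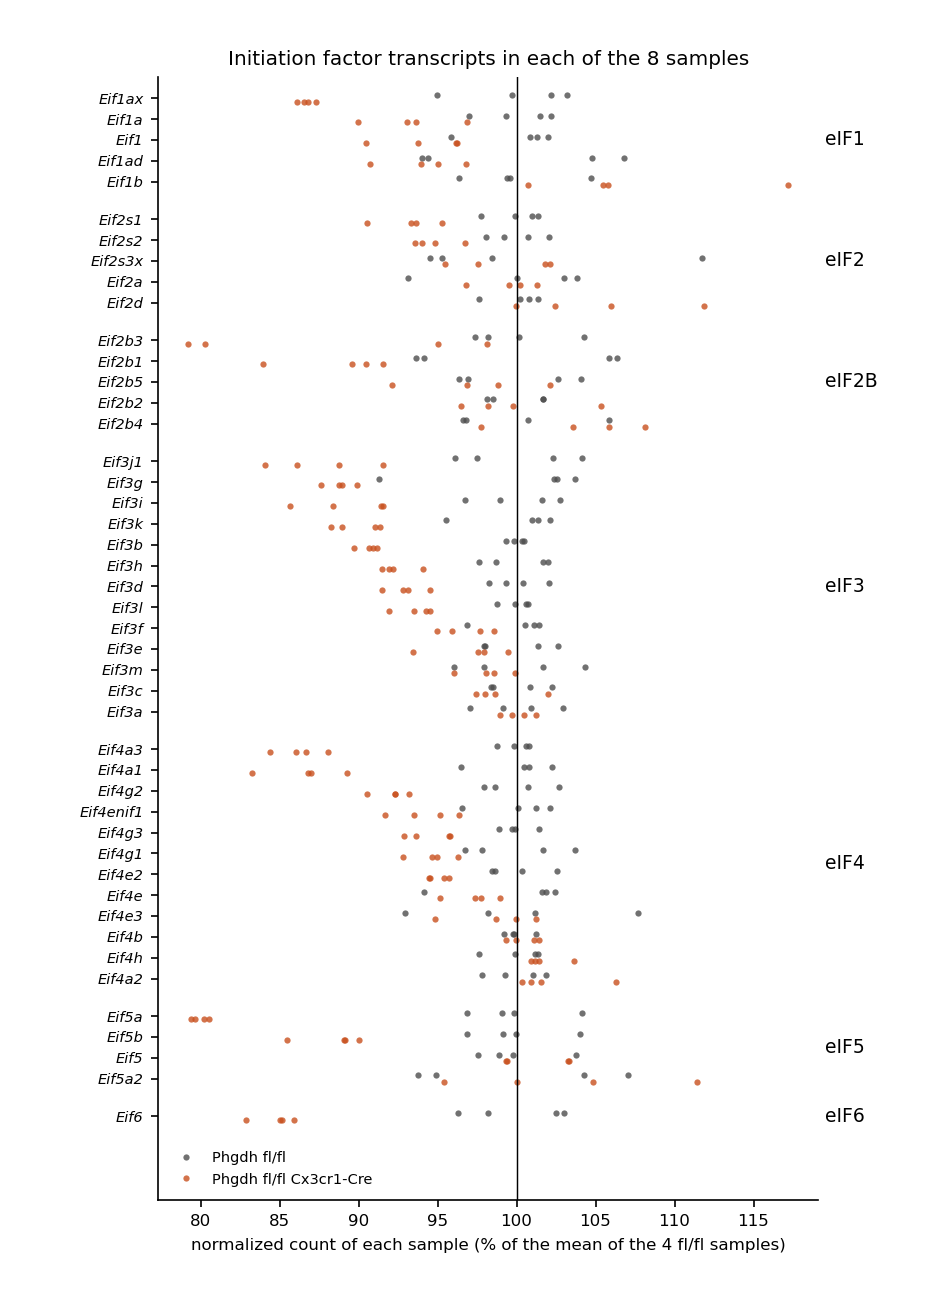
Normalized count of each of the 8 samples (horizontal axis) as a percentage of the mean of the 4 control samples, for each member tested other than Eif3j2, with control TEMs in grey and Cre TEMs in orange. The orange points of Eif5a lie on average 20.1% below the control mean and well apart from the grey ones, whereas those of Eif3a, Eif4b and Eif5 mix with the grey points.

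Of the 9 ratios between related members, none passed the threshold after adjustment, which 5 ratios at the smallest possible p could not do. Besides the ratios of Eif4a1 and of Eif5a, those of Eif4a3 to Eif4a2 (0.642 ± 0.00602 and 0.542 ± 0.0110 in control and Cre TEMs), Eif1 to Eif1b (1.82 ± 0.0365 and 1.60 ± 0.0927) and Eif1ax to Eif1a (0.742 ± 0.0197 and 0.690 ± 0.0229) were lower without overlap of the groups. Each of them reached the smallest exact two-sided permutation p of 0.0286 (0.0514 adjusted over the 9 ratios). The ratios of Eif4g1 to Eif4g2 and to Eif4g3, and of Eif4e to Eif4e2 and to Eif4e3, overlapped between genotypes, with exact permutation p between 0.200 and 0.943. Ratios with a common member are not independent of each other.

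**Figure D5:**
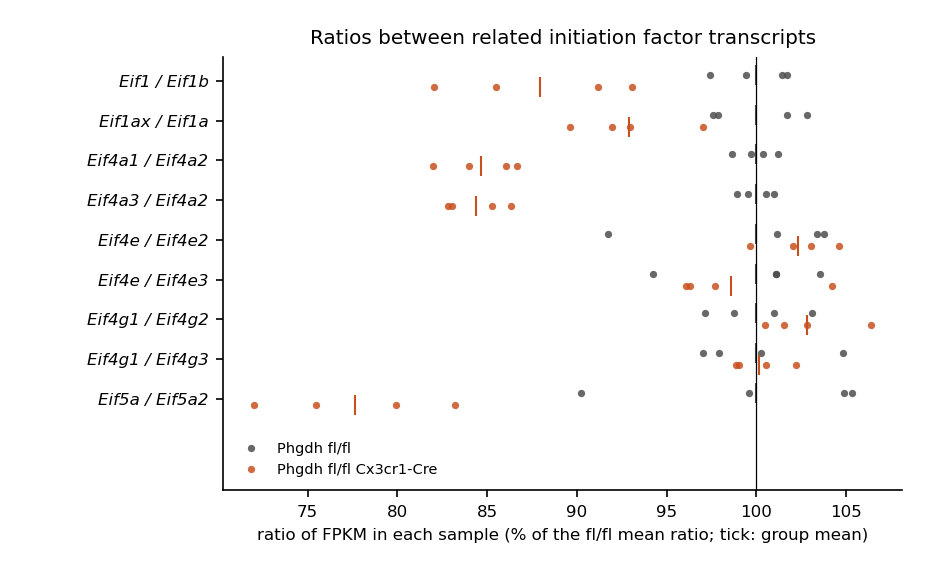
Ratio of the FPKM of related members in each sample (points) as a percentage of the mean control ratio (horizontal axis), with ticks at the group means. The Cre samples lie to the left of all control samples for 5 of the 9 ratios, among them Eif4a1 to Eif4a2 and Eif5a to Eif5a2, and overlap with them for the ratios of Eif4e and Eif4g1.

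Around the initiation factors, 48 genes that regulate or follow initiation were described as lists. Of these 15 were called lower and 4 higher, with a median log2 fold change of -0.040, against 20.3% lower, 20.8% higher and a median of -0.0018 over all genes tested, and the counts of the lists that follow are read against the same shares. Among genes in the abundance range of the members 28.3% were called lower and 26.4% higher. A share matched to the abundance of the listed genes was not computed. Among 6 genes of the eIF2 kinases and of the phosphatase that reverses them, none fell and 2 rose. Eif2ak4, the kinase GCN2 that senses uncharged tRNA, rose by 0.22 on the log2 scale (limma, adjusted p = 6.69e-05), and Ppp1r15a, the stress-induced phosphatase subunit GADD34, rose by 0.35 (limma, adjusted p = 1.07e-07). Of 8 regulators of eIF4E and eIF4A, the eIF4E kinase genes Mknk1 (0.08) and Mknk2 (0.14) rose and Cyfip1 (-0.12), whose product binds eIF4E, fell. The eIF4E-binding protein genes Eif4ebp1 (0.07) and Eif4ebp2 (0.02) did not pass the test.

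Of 5 poly(A)-binding proteins and partners, Pabpc1 (-0.07), Paip1 (-0.09) and Paip2 (-0.08) fell. Among 7 scanning and recycling helpers, Denr (-0.22), which acts with Mcts1 in reinitiation, fell with the ribosome recycling gene Abce1 (-0.16) and with Abcf1 (-0.07). Neither enzyme that makes hypusine on eIF5A passed the test, with -0.11 for Dhps and -0.18 for Dohh (limma, adjusted p = 0.119 and 0.0588). Of 8 genes listed with the elongation factors by their Eef symbols, 5 were called lower, namely Eef1e1 (-0.30), Eef1b2 (-0.21), Eef1d (-0.21), Eef1g (-0.15) and Eef1a1 (-0.11). None of 3 termination factors was called, while 3 of 9 mitochondrial translation factors fell, which were Tsfm (-0.18), Gfm1 (-0.12) and Tufm (-0.09).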

How the data were processed

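RNA of 4 Phgdh fl/fl and 4 Phgdh fl/fl Cx3cr1-Cre TEM samples, grouped by their labels, was sequenced as single reads of 75 bases from a directional library kit. The authors used TopHat2 to map the reads to mm10, HT-seq (HTSeq 0.6 in the submitters' processing notes) to count them on genes and DESeq2 to compare the genotypes. The strand setting and the treatment of reads with several matches are not given in the sources used here. What the authors deposited for each sample is a signal, the reads of a gene over the size factor of the sample. These values are described as FPKM but are not divided by length. The deposited table also holds the authors' mean signal, log2 fold changes with errors, a test score and p-values, which were not used. Whole reads were recovered for 100% of the 144353 values above 0 (tolerance 0.01 read).

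The 13629 genes whose normalized counts averaged 10 or more were tested as log2(normalized count + 1) with limma 3.58.1 in R 4.3.3 (lmFit, eBayes with trend, two-sided), with Benjamini-Hochberg adjustment over all genes tested and a threshold of 0.05. Log2 fold changes are on this scale and understate changes of low genes. FPKM, positions, GC content, overlaps and shared windows of 75 bases were computed with GENCODE M21, in which 18629 genes were found. Paralog ratios were tested by exact permutation over the 70 labelings (scipy 1.17.1, Python 3.11.15). Promoters came from RefSeq. Samples held 38219563 to 47027420 reads. Counting error was a sizeable part of the spread between replicates and limits genes of few reads most. The fits were tested on simulated data, with recovery tried only for differences about as large as that of Eif5a or larger. Recovery of smaller differences, such as those of the other members called lower, was not tested. Each pair of replicates differed by more than sampling noise (chi-square per gene between 1.80 and 6.20). The highest values, 5.39, 5.91 and 6.20, were those of control replicate 1 with the other control samples.

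Each member could be named with its log2 fold change. Values in every sample were given for the highest and lowest member of each factor, for members called with a change of at least 0.3 and for sets of paralogs. Of the pathway lists, up to 3 genes called in each direction were to be named. For the list of Eef symbols all 5 were named after their values were seen. Eif3b, Eif3g, Eif3i and Eif5b, and genes not called in those lists, were given more values after these were seen. The members, the lists and the tests were chosen with earlier results of these data known. As alternatives, the pseudocount was lowered to 0.1, the filter was dropped or raised to 50, and the other settings were total read scaling, quantile normalization, edgeR 4.0.16 (quasi-likelihood, TMM), DESeq2 1.42.0, eBayes without trend, a replicate block, a GC and length correction, both together, and leaving out each sample.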

Additional observations from a re-analysis of the deposited data

Results flagged for a closer look

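Among the 94 groups of 4 values examined (47 members in each genotype), 2 held a sample far from the other 3, where chance alone marks about 1 group in 20. Eif3g stood at 3020 normalized counts in control replicate 1, against 3386 to 3430 in the other control samples. Eif4e stood at 4301 in control replicate 2, against 4643 to 4681 in the others. For Eif3g the deviating sample was still above all 4 Cre samples, and the gene was called lower in every alternative, whereas the deviating sample of Eif4e was below all of its Cre samples.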

How the results depend on the processing

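Of the 25 members called lower, 18 were called in all 19 alternatives, and the other 7 (Eif1, Eif2b3, Eif2s2, Eif3h, Eif4e2, Eif4enif1 and Eif4g1) lost the call in between 1 and 5. Of the 21 not called, 15 were never called. The number called lower lay between 22 and 25 over the alternatives that kept all samples, and between 22 and 27 when 1 sample was left out, 22 without control replicate 2 or Cre replicate 2 and 27 without control replicate 1. The number called higher, 0 in the analysis reported, was 1 with total read scaling, 2 with quantile normalization, 1 with the GC and length correction and between 0 and 1 when 1 sample was left out. These were Eif1b or, with quantile normalization, Eif3a and Eif4b. With the GC and length correction Eif3a and Eif4e took the place of Eif1 and Eif3h among the 25 called lower. The median log2 fold change of the members moved to -0.068 with total read scaling, where that of all genes was 0.013, and lay between -0.087 and -0.074 when 1 sample was left out. Eif3a turned from 0.00 to -0.071 with the GC and length correction and to -0.071 when the replicate block was added.

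The labels number the replicates of both genotypes from 1 to 4 without saying what a number shares. The deviations of samples with the same number correlated between 0.063 and 0.13, above 0.1 in 1 pair of 4. Those of samples with different numbers correlated between -0.12 and 0.13. Of the 8 samples, 5 correlated best with their own number. These values do not settle whether a number pairs samples, and the analysis reported did not pair them. With the replicate block 25 members were called lower and 1 higher (Eif1b, adjusted p = 0.0289), and the block with the GC and length correction gave 25 and 1, with Eif1 and Eif3h not called (adjusted p = 0.364 and 0.104). Depth limits Eif3j2 and Eif4a3l2, and for the other members that were not called the intervals given set how large a difference could have been missed.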
